A study of Rattus norvegicus with 7 samples.

Results

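Opioid and cannabinoid signalling genes were examined in cultured rat oligodendrocyte progenitor cells that were undergoing differentiation. The set holds 10 genes, chosen by symbol, out of 32852 genes in the deposited table. They are the peptide precursors Penk and Pdyn, the receptors Oprk1, Oprm1, Oprd1, Oprl1 and Cnr1, and the endocannabinoid enzymes Dagla, Mgll and Faah. The set was drawn up because Penk and Cnr1 were higher after the siRNA in these same libraries, so the difference between the siRNA groups is described for the members and is not offered as a test of them. All 10 symbols were found, and 9 had a mean normalised count of at least 10. Pdyn was below that minimum.

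The cells came from wild-type rats at postnatal day 7 and were plated at about 40000 per well. Each well was transfected by lipofection. It received a control siRNA (4 libraries) or an siRNA directed at RNLTR12-int, a rat sequence of endogenous retroviral origin (3 libraries, siRNLTR12-int), and was switched at the same moment to differentiating medium for 4 to 5 days. Both groups share the genotype, the transfection and the medium. The labels name biological replicates without an animal, culture or day, so p-values measure only how these samples spread, and part of that spread may be technical. RNLTR12-int was not analysed here, so the knockdown itself was not checked.

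Opioid peptides are cut from larger precursors and act on receptors that couple to inhibitory G proteins. Proenkephalin, the product of Penk, gives Met- and Leu-enkephalin, which bind the delta and mu receptors (Oprd1, Oprm1), and prodynorphin, the product of Pdyn, gives dynorphins, which bind the kappa receptor (Oprk1). The nociceptin receptor (Oprl1) is the related receptor that does not bind the classical opioid peptides. Endocannabinoids are lipids made on demand. Diacylglycerol lipase alpha (Dagla) makes 2-arachidonoylglycerol, the cannabinoid receptor CB1 (Cnr1) senses it, monoacylglycerol lipase (Mgll) breaks it down, and fatty acid amide hydrolase (Faah) breaks down anandamide. Kappa opioid and CB1 signalling are both known to promote oligodendrocyte differentiation in culture.

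The libraries held 22523873 to 61803693 recovered reads. The cultures were mixed. All 8 oligodendrocyte lineage markers were present, Olig1, Olig2, Sox10 and Mbp among them, with a mean level of 13.77 to 15.44 in controls and 13.10 to 13.32 after the siRNA (log2 scale of the normalised count). The mean level of the 8 astrocyte markers divided the libraries. It stood at 13.81, 13.50 and 13.97 in 3 of them (control replicates 1 and 2, siRNLTR12-int replicate 1) and at 11.83 to 11.90 in the remaining 4. The mean of the 7 microglia markers found followed the same division, at 8.07 to 9.35 against 6.08 to 6.82. Taken singly, the astrocyte marker Gjb6, which was low in counts, and the microglia marker P2ry12 overlapped between the sides. The 8 neuron markers ranged from 8.78 to 9.92, and the 6 vascular and fibroblast markers found ranged from 5.00 to 6.71, with the endothelial marker Cldn5 at 0 in all 7 libraries. In bulk RNA of this kind, fewer cells of a type and less RNA per cell cannot be told apart. Normalised counts are not corrected for gene length, so levels are compared for 1 gene across libraries and not between genes.

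Penk (ENSRNOG00000008943), the enkephalin precursor, had 646, 178, 295 and 245 normalised counts in control replicates 1 to 4. After the siRNA it had 1730.3, 1065 and 1379.7 in replicates 1 to 3. All 3 siRNLTR12-int libraries lay above all 4 controls, and control replicate 1 was the highest control. The means were 341 ± 209 (SD, n = 4) and 1392 ± 333 (SD, n = 3), a ratio of 4.08. On the log2(normalised count + 1) scale the siRNLTR12-int libraries were 2.17 higher, with a standard error of 0.42 from the fit across all genes. These values rest on 138 to 675 reads per control library and 841 to 1894 reads per siRNLTR12-int library.

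The Penk difference had nearly the same size on both sides of the astrocyte division. It was 2.17 in the 4 libraries low in astrocyte markers (2 against 2) and 2.35 in the other 3 (2 controls against a single siRNLTR12-int library). Leaving out each library in turn gave 1.92 to 2.54. The library with the most Penk, siRNLTR12-int replicate 1, also had the highest astrocyte marker level. The 2 controls high in astrocyte markers had 646 and 178 counts of Penk, and the 2 low ones had 295 and 245. The part of cell composition in the Penk level was not tested.

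Cnr1 (ENSRNOG00000008223), the CB1 receptor gene, had 2280.2, 2006, 2804 and 1545 normalised counts in control replicates 1 to 4. It had 2973, 6457 and 5392 in siRNLTR12-int replicates 1 to 3. The groups did not overlap, although siRNLTR12-int replicate 1 stood only just above control replicate 3. The means were 2159 ± 526 (SD, n = 4) and 4941 ± 1786 (SD, n = 3), a ratio of 2.29, and the log2 difference was 1.15 with a standard error of 0.30. Unlike Penk, Cnr1 differed in size between the sides of the astrocyte division, at 1.50 in the 4 low libraries and 0.47 in the 3 high ones. Whether these differences themselves differ was not tested, since the high side holds 1 siRNLTR12-int library.

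**Figure D1:**
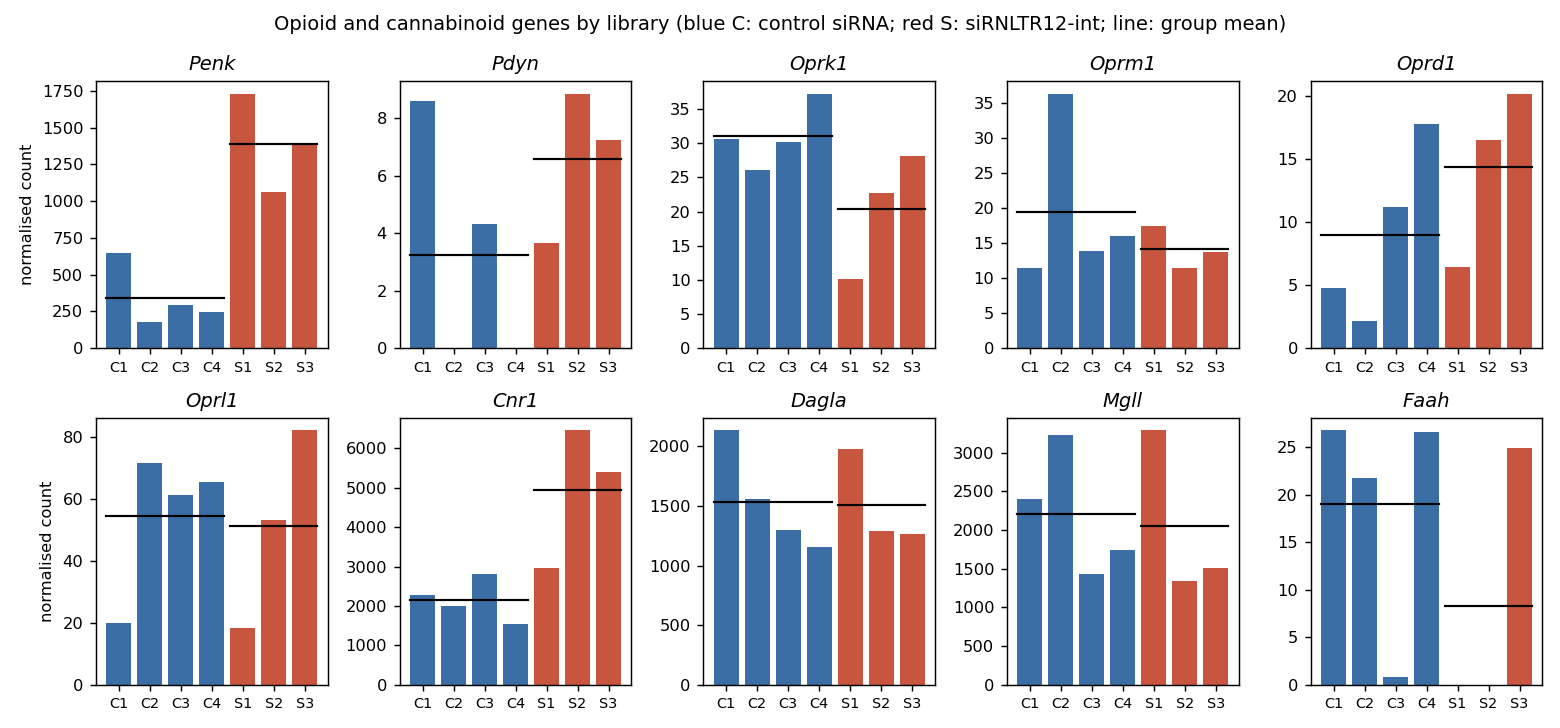
Normalised counts (vertical axes, each from 0) of the 10 genes in the 4 control libraries (blue, C1 to C4) and the 3 siRNLTR12-int libraries (red, S1 to S3), with a line at each group mean. Penk and Cnr1 are higher in all 3 red libraries than in all 4 blue ones, Dagla and Mgll are high in C1, C2 and S1, and Faah is listed at 0 in S1 and S2.

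Penk and Cnr1 were the 2 of 10 members in which every siRNLTR12-int library was above every control, and in 0 members was every one below. Over the 18225 genes with a mean of at least 10, 4.09% were higher without overlap and 7.68% were apart in either direction. The authors' deposited table (DESeq2) called Penk and Cnr1, with log2 fold changes of 2.03 and 1.19, and no other member. That table called 0.752% of genes in either direction and 0.384% as higher. The limma test on normalised counts called 0% of the 18225 genes at an adjusted p under 0.05, and so 0 members. At an unadjusted p under 0.05 limma had 1149 genes, 6.3% of those tested (3.33% higher), 2 of them members, both higher. Since this contrast chose the set, nothing is read from these counts.

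Pdyn (ENSRNOG00000026036), the dynorphin precursor, was close to the limit of detection. It had 9, 0, 5 and 0 reads in controls 1 to 4 and 4, 7 and 9 after the siRNA. A count of 0 allows up to 3 reads, which is 2.18 normalised counts in control replicate 2 and 5.32 in control replicate 4, the shallowest library. A difference between the groups was not detectable at this depth. These limits cover counting error only.

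The 4 opioid receptor genes were all low, with 3 to 102 reads per library, and their groups overlapped. Oprk1 (ENSRNOG00000007647), the kappa receptor, had 30.6, 26.1, 30.2 and 37.3 normalised counts across the controls and 10.0, 22.8 and 28.2 across the siRNLTR12-int libraries. The controls were close together, and only siRNLTR12-int replicate 3 reached into their range. The log2 difference of Oprk1 was -0.69 with a standard error of 0.39, and it was -0.27 without siRNLTR12-int replicate 1, which had only 11 reads. In the low libraries it was -0.39.

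Oprm1 (ENSRNOG00000018191), the mu receptor, had 11.5, 36.3, 13.8 and 16.0 normalised counts in controls and 17.4, 11.4 and 13.7 after the siRNA. Control replicate 2 alone was high, and without it the log2 difference went from -0.31 (standard error 0.44) to 0.03. Oprd1 (ENSRNOG00000010531), the delta receptor, had 4.78, 2.18, 11.2 and 17.7 in controls and 6.39, 16.5 and 20.1 after the siRNA, a log2 difference of 0.80 with a standard error of 0.71. Its levels instead followed the astrocyte division. The 3 libraries high in astrocyte markers had 2.18 to 6.39 counts of Oprd1 and the 4 low ones had 11.2 to 20.1. In those same 3 libraries Olig2 was also lower, at 9854 to 13716 against 22134 to 26395. Olig1 was lower there too, at 27410 to 30602 against 40714 to 50430. Sox10 overlapped, at 8037 to 29794 against 27505 to 38713, and so did Mbp.

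Oprl1 (ENSRNOG00000016768), the nociceptin receptor, had 20.1, 71.8, 61.2 and 65.6 normalised counts in controls and 18.3, 53.2 and 82.2 after the siRNA. Control replicate 1 and siRNLTR12-int replicate 1 stood apart from the other 5 libraries, and the log2 difference was -0.18 with a standard error of 0.63. The same pair of libraries was low in Sox10, a lineage transcription factor, with 8318 and 8037 counts against 27505 to 38713 in the other 5. Olig2 was also lowest in that pair, at 9854 and 10733, with control replicate 2 next at 13716. Other lineage markers did not set the pair apart. Olig1 was lowest in control replicate 2 (27410) and Mbp in siRNLTR12-int replicate 3 (15076). The part of cell composition in these receptor values was not tested.

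Of the endocannabinoid enzymes, the synthetic enzyme and the main degrading enzyme did not separate the siRNA groups. Dagla (ENSRNOG00000027264) had 2134, 1555, 1298 and 1155 normalised counts across the controls and 1982, 1287 and 1262 across the siRNLTR12-int libraries. The log2 difference was -0.02 with a standard error of 0.25. Mgll (ENSRNOG00000014508) had 2402, 3236, 1427 and 1746 in controls and 3289, 1342 and 1515 after the siRNA, with a log2 difference of -0.16 and a standard error of 0.39. The sign of both small differences changed when single libraries were left out, with ranges of -0.23 to 0.16 for Dagla and -0.56 to 0.09 for Mgll.

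Both enzymes separated the libraries by astrocyte marker level. Dagla was at 1555 to 2134 in the 3 high libraries and at 1155 to 1298 in the 4 low ones, and Mgll was at 2402 to 3289 against 1342 to 1746. Daglb, the other diacylglycerol lipase, followed the same order, at 1389 to 1612 against 864 to 1079. Such a pattern was common: 35.8% of all genes tested had no overlap between these 3 and 4 libraries (18.6% higher and 17.1% lower in the 3), and 3 of the 10 members did (Dagla and Mgll higher, Oprd1 lower). Gfap, the astrocyte filament gene, was at 224537 to 306397 in the 3 and at 19440.4 to 44392 in the 4. The part of astrocytes in the Dagla and Mgll levels was not tested.

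**Figure D2:**
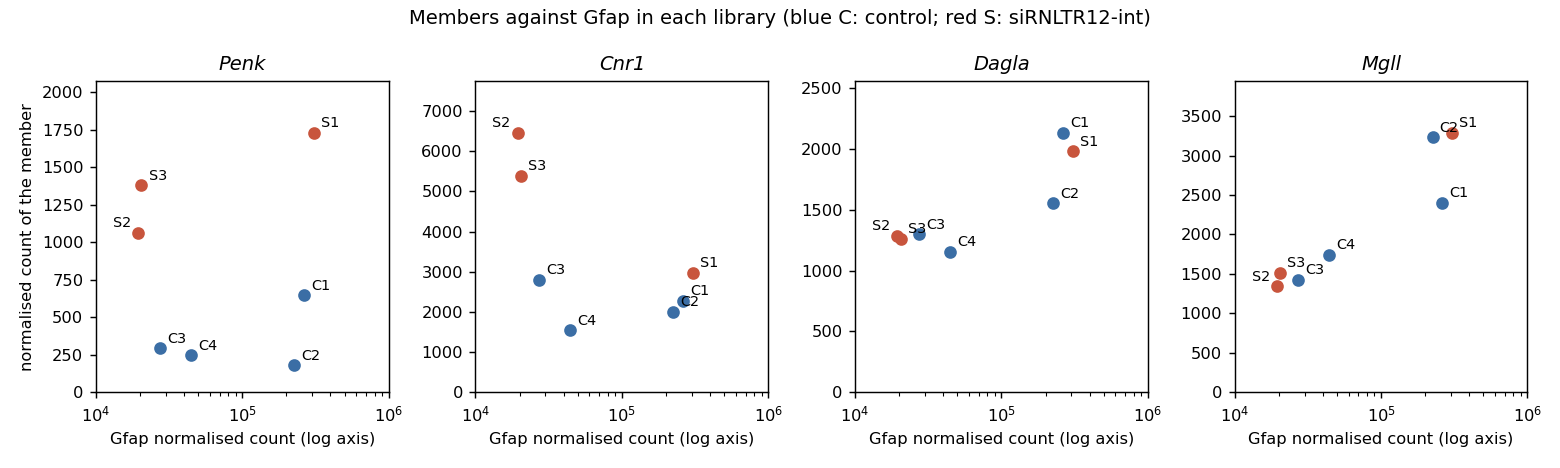
Normalised counts of Penk, Cnr1, Dagla and Mgll (vertical axes, from 0) against the Gfap normalised count (horizontal log axis) in each library, control in blue and siRNLTR12-int in red. Dagla and Mgll are high in the 3 libraries with a Gfap count of 224537 or more, whereas Penk is high in S1, S2 and S3 at either Gfap level and Cnr1 is highest in S2 and S3.

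The row named Faah (ENSRNOG00000011019) behaved unlike the other members. It had 28, 30, 1 and 15 reads across the controls and 0, 0 and 31 across the siRNLTR12-int libraries, so that libraries of both groups fell to 0 or 1 read. The table holds a second row, LOC100911581 (ENSRNOG00000045949), and RefSeq on the GRCr8 assembly gives the gene with that number the symbol Faah. LOC100911581 had 345, 1151, 542 and 270 reads in controls and 273, 319 and 517 after the siRNA. The row named Faah thus held 0% to 7.51% of the reads of both rows. Salmon, named in the submitters' processing notes without a version, shares reads among similar genes by estimation. Values of either row alone are therefore uncertain.

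Summed over both rows, Faah had 357, 857, 468 and 506 normalised counts across the controls and 249, 404 and 442 across the siRNLTR12-int libraries. The groups overlapped, and control replicate 2 was the highest. The log2 difference was -0.55 with a standard error of 0.33, against -2.18 with a standard error of 1.47 for the row named Faah alone. The sum was chosen after the data had been seen.

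**Figure D3:**
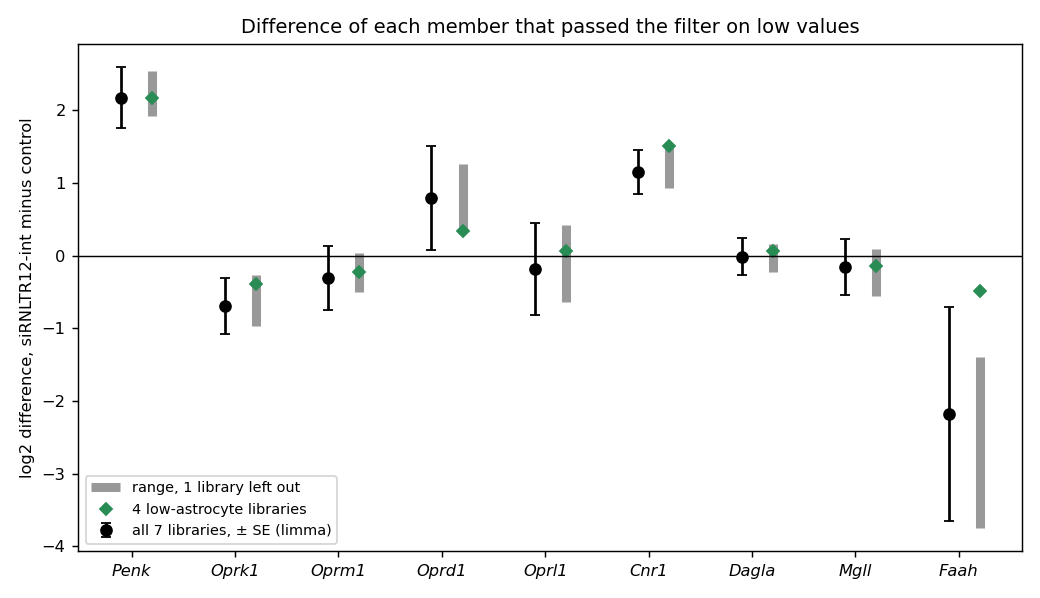
Log2 difference (siRNLTR12-int minus control) of the 9 members with a mean of at least 10, as black points with the standard error from limma, beside the range when 1 library is left out (grey bar) and the value in the 4 libraries low in astrocyte markers (green diamond). Penk, Cnr1 and Oprd1 stay above 0 throughout, and Oprk1 and the Faah row stay below it. Oprm1, Oprl1, Dagla and Mgll cross 0, and the Faah row has the widest error.

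The patterns of Penk and Cnr1 over the 7 libraries were compared. Likeness was measured as the mean absolute difference between the log2 values of a pair of genes, each centred on its own mean, over 12090 candidate genes with a mean of at least 100. This distance counts the size of the changes as well as their shape. The log2 difference between the groups was 2.17 for Penk and 1.15 for Cnr1, so the ranks do not compare shape alone. Penk and Cnr1 were 0.72 apart, which placed Cnr1 at rank 171 among the genes nearest to Penk and Penk at rank 9049 among those nearest to Cnr1. The main contrast between them was siRNLTR12-int replicate 1, where Penk was at its highest and Cnr1 was the lowest of the siRNLTR12-int libraries. The median candidate was 1.13 from Penk and 0.60 from Cnr1.

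The nearest gene to Penk was Gdf15, a stress-induced cytokine, at a distance of 0.26. It had 505, 255, 190 and 202 normalised counts in controls and 1436, 876 and 762 after the siRNA. Next came Myof (a membrane repair protein, 0.31), Gda (guanine deaminase, 0.33), Acod1 (the enzyme that makes itaconate, 0.33) and Cemip (a hyaluronan-binding protein, 0.35). Like Penk, Myof, Gda, Acod1 and Cemip had their lowest value in control replicate 2, whereas Gdf15 was lowest in control replicate 3.

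The nearest gene to Cnr1 was Zcchc12 at 0.12, with 322, 298, 476 and 264 normalised counts in controls and 376, 935 and 728 after the siRNA. It was followed by the nuclear receptors Nr4a2 (0.14) and Nr4a3 (0.15), the receptor for the cytokine TWEAK Tnfrsf12a (0.16) and the tubulin gene Tubb6 (0.16). In all 5 genes, as in Cnr1, siRNLTR12-int replicates 2 and 3 were the highest libraries. Replicate 1 of that group lay within the control range in Zcchc12, Nr4a2, Nr4a3 and Tnfrsf12a and just above it in Tubb6. These genes were picked for a pattern near that of Cnr1, so shared high libraries follow largely from that choice.

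**Figure D4:**
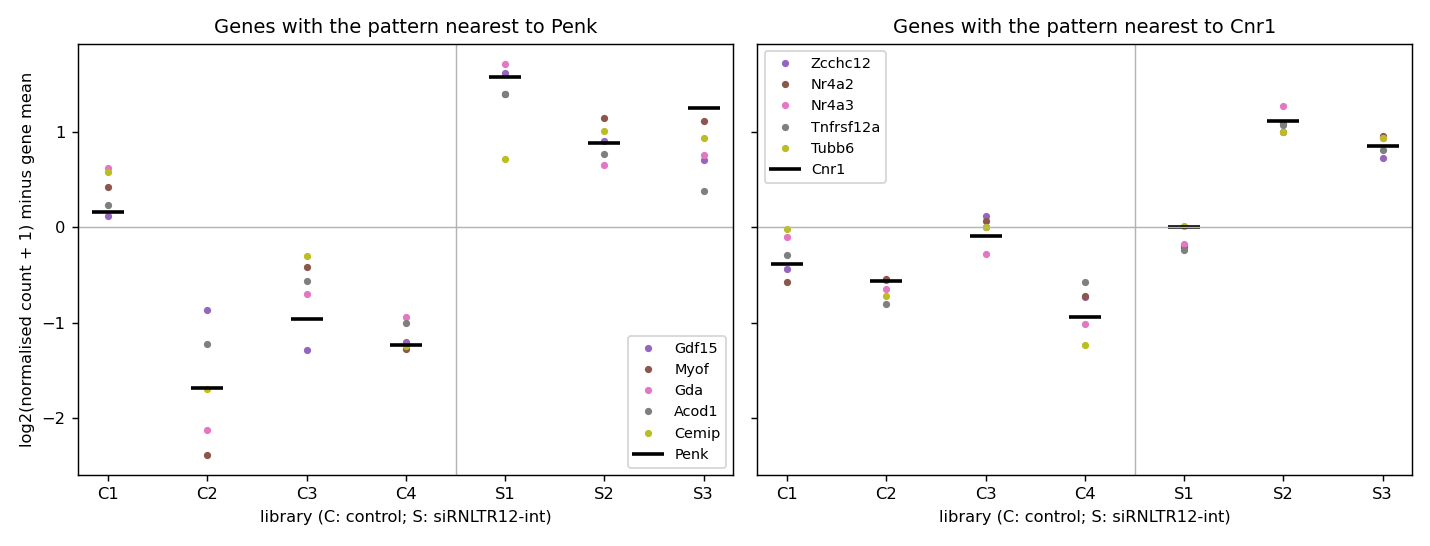
Log2(normalised count + 1) minus the gene's own mean (vertical axis) in each library (C1 to C4 control, S1 to S3 siRNLTR12-int) for Penk and its 5 nearest genes on the left, and Cnr1 and its 5 nearest genes on the right. Penk (black bar) peaks in S1 and is lowest in C2, while Cnr1 peaks in S2 and S3.

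The wider pathways were followed in 8 lists of other genes, 86 rows in all, of which 84 had a mean of at least 10. No gene passed the limma test after adjustment, in which 0 of 18225 genes did. At an unadjusted p under 0.05, 7 of the 84 were higher and 1 was lower, against 606 (3.33%) and 543 of the 18225 genes. In the authors' deposited table (DESeq2) 2 of 82 rose and 0 fell, where 0.384% of all genes in that table rose and 0.752% changed in either direction. The median log2 difference of the 84 was 0.06, against 0.01 over all genes tested.

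Both genes called in the authors' table are AP-1 subunits, from the list of cyclic AMP and AP-1 factors known to act at the Penk and Pdyn promoters. Fosl1 had 408, 253, 517 and 383 normalised counts in controls and 558, 1752 and 1554 after the siRNA. In the authors' deposited table it rose with a log2 fold change of 1.72 (DESeq2, adjusted p = 0.0169; limma adjusted p = 0.661). Fosl2 had 287, 133, 140.5 and 95.8 in controls and 382, 514 and 421 after the siRNA. It rose in the authors' deposited table too, with a log2 fold change of 1.42 (DESeq2, adjusted p = 0.0452; limma adjusted p = 0.647). In both genes the groups did not overlap. Fosb, another subunit, had 93.8, 40.6, 39.6 and 44.4 against 137, 113 and 111, with a log2 difference of 1.22 (limma adjusted p = 0.661). In this list 17 of 19 rows were positive, with a median of 0.25, and the symbol Nr3c1 stood in 2 rows.

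Among genes that make and release opioid peptides, 8 of 11 were positive (median 0.09), and none passed. Scg2, a granin of secretory granules, had 489, 855, 1513 and 885 normalised counts in controls and 579, 4127 and 3798 after the siRNA, a log2 difference of 1.27 (limma adjusted p = 0.880). siRNLTR12-int replicates 2 and 3 were high, and replicate 1 lay within the range of the controls. The chaperone Scg5 and the amidating enzyme Pam differed by -0.43 and 0.23 (limma adjusted p = 0.893 and 0.918). Among peptidases, 4 of 7 were positive (median 0.05). Ece1, endothelin-converting enzyme, had 4071, 2384, 4248 and 4050.1 in controls and 5210.1, 6037 and 6047 after the siRNA, with a log2 difference of 0.68 (limma adjusted p = 0.701), which the low control replicate 2 enlarges. Ece2 and Mme (neprilysin, which cleaves enkephalins) differed by -0.27 and 0.59 (limma adjusted p = 0.924 and 0.911).

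Other opioid-binding receptors had 3 of 4 positive (median 0.14). Ackr3, a scavenger receptor for opioid peptides, differed by 0.45 (limma adjusted p = 0.766), Ogfrl1 by 0.24 and Ogfr by -0.23 (limma adjusted p = 0.983 and 0.918). In the endocannabinoid synthesis list 3 of 7 were positive (median -0.12), with Gde1 at -0.66, Napepld, which releases anandamide, at -0.41 and Abhd4 at -0.30 (limma adjusted p = 0.875, 0.840 and 0.965).

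In the list of endocannabinoid breakdown and carriage, 5 of 7 were negative (median -0.46) and Ptgs2 went the other way. Ptgs2, cyclooxygenase 2, had 123, 20.3, 96.5 and 71.0 normalised counts in controls and 293, 296 and 217 after the siRNA, a log2 difference of 2.02 (limma adjusted p = 0.662). Abhd12, which hydrolyses 2-arachidonoylglycerol, had 5413, 8748, 4976 and 6466 in controls and 4361, 4308 and 4055 after the siRNA, a log2 difference of -0.56 (limma adjusted p = 0.712). In neither gene did the groups overlap. The lipid carrier Fabp5 differed by -0.46 (limma adjusted p = 0.832).

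Other cannabinoid-linked receptors had 3 of 4 tested rows negative (median -0.17), with Cnrip1, a protein that binds CB1, at 0.30, Gpr18 at -0.12 and Trpv1 at -0.44 (limma adjusted p = 0.935, 0.991 and 0.918). Among 25 genes of inhibitory G protein transduction and receptor desensitisation, 14 were positive (median 0.05). Rgs16, which ends G protein signals, differed by 1.11, the G protein subunit Gnaz by 0.61 and the adenylyl cyclase Adcy9 by 0.29 (limma adjusted p = 0.794, 0.818 and 0.908).

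**Figure D5:**
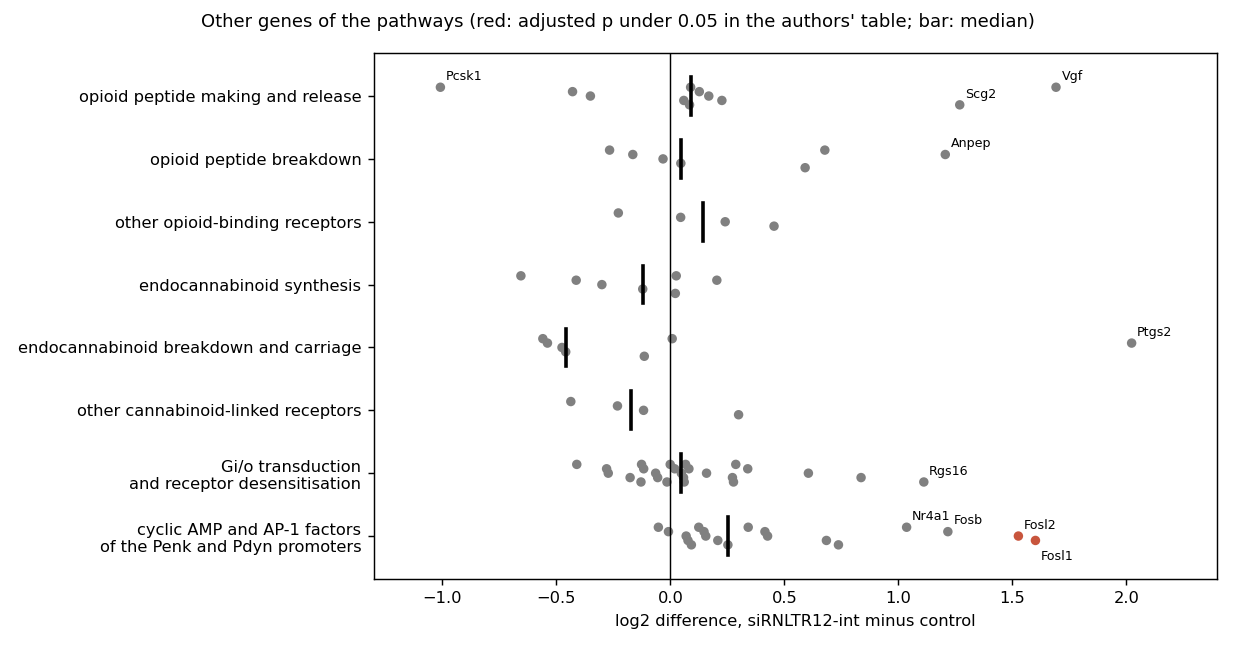
Log2 difference (siRNLTR12-int minus control, horizontal axis) of each tested gene in the 8 pathway lists, with the list median as a bar and genes called in the authors' table in red. Fosl1 and Fosl2 are the only red points, Ptgs2 lies farthest to the right at 2.02, and the list medians lie between -0.46 and 0.25.

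Within the 4 libraries low in astrocyte markers (control replicates 3 and 4 against siRNLTR12-int replicates 2 and 3) more genes passed. There limma called 1218 of 18225 genes at an adjusted p under 0.05, 6.68% of those tested (4.02% higher and 2.67% lower), and called 16 of the 84 pathway rows higher and 3 lower. The 2 members called were Penk and Cnr1, in libraries from which the set had been chosen, so nothing is read from that count. The factor list had 8 of 19 higher and 0 lower: Fosl1, Fosl2, Fosb, Fos, Jun, Junb, Nr4a1 and Kcnip3, the last a repressor of Pdyn. Fosl2 was 1.99 and Junb 1.02 higher on the log2 scale (limma adjusted p = 0.0118 and 0.00976). Peptide granule genes moved in both directions there. Scg2 and Vgf were higher by 1.77 and 1.18, and Pcsk1, a prohormone convertase, was lower, at -2.04 (limma adjusted p = 0.0139, 0.0321 and 0.0361). The Pcsk1 counts were low, at 38.8 and 42.6 in these controls against 11.4 and 7.25. In siRNLTR12-int replicate 1, outside this fit, Pcsk1 was at 127.9, its highest value in any library. Over all 7 libraries its log2 difference was -1.01 (limma adjusted p = 0.951), and 0.06 in the authors' deposited table. Rgs16 was 2.10 higher (limma adjusted p = 0.0136). That fit rests on 2 libraries a group.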

How the data were processed

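RNA was depleted of ribosomal RNA and sequenced from both ends with strand kept, per the labels' protocols. Salmon, DESeq2 and the build Rnor_6.0 are named in the submitters' processing notes, without versions. The authors deposited a normalised count (a signal) per gene and library and a comparison table with log2 fold changes, a test score, p-values and adjusted p-values, per the file headers. In every library 100% of the values were whole multiples of 1 step (tolerance 0.01), and these whole numbers are called reads here. Since Salmon estimates reads, they can be rounded estimates. No annotation of that build was used, so no coordinates are given.

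The main test was limma 3.58.1 with a mean-variance trend on log2(normalised count + 1), two-sided, over genes with a mean of at least 10 and all 7 libraries, with Benjamini-Hochberg adjustment at 0.05. That scale understates changes of low genes. Alternatives were pseudocounts 0.25 and 8, no filter, a minimum mean of 50, TMM, blocks for replicate number and astrocyte marker level, the low-astrocyte libraries alone, each library left out, and count tests on recovered reads with DESeq2 1.42.0 and edgeR 4.0.16. The fits were tested on simulated data. Named were all members, genes of a list called by limma or the authors plus its 3 smallest limma p-values, and the 5 genes nearest to Penk and to Cnr1. Other genes were named after their values were seen. Members and lists were chosen with earlier results of these data known.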

Additional observations from a re-analysis of the deposited data

Results flagged for a closer look

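In the 4 controls, 35 genes were tested for a library that stood apart from the other 3 (Dixon's test), and chance alone does so in about 5% of groups. None of the 10 members did, and 4 pathway genes did. Ece1 had 2384 normalised counts in control replicate 2 and 4050.1 to 4248 elsewhere. Gpr18 had 99.5 in control replicate 1, against 52.6 to 58.5. Fosb had 93.8 in control replicate 1, against 39.6 to 44.4. Adcy9 had 654 in control replicate 3, against 468 to 499.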

How the results depend on the processing

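The count of genes called by limma was 0 with other pseudocounts, filters, TMM, either block and edgeR (1165 genes at an unadjusted p under 0.05), 1218 in the low-astrocyte libraries alone, and 141 with DESeq2. Leaving out 1 library gave 0 to 2 calls (2 without control replicate 4, 1 without siRNLTR12-int replicate 2). The replicate block also gave 0. Same-numbered libraries were not paired in the main test, since the labels state no pairing. Their deviations correlated at 0.75, -0.19 and 0.63 for replicates 1, 2 and 3. The libraries of replicates 1 and 3 lay on the same side of the astrocyte division in both groups, and those of replicate 2 did not. Whether same-numbered libraries share a culture cannot be told from these values. Penk and Cnr1 kept their sign in all 17 alternatives, at 1.92 to 2.54 and 0.92 to 1.50. In both genes every siRNLTR12-int library lay above every control, so no choice of libraries or pseudocount could change the sign. The set was chosen for this rise, and nothing is read from the kept sign. Faah also kept its sign in all 17, and Oprk1 and Oprd1 in all 16 that were run for them. Each of the 9 members stayed within its replicate spread (the SD of its log2 values within groups, pooled over both groups) in every alternative run. At these group sizes, leaving out 1 library cannot move a difference beyond that spread. Nothing is therefore read from staying within it, and the spread of the Faah row was wide, at 2.26. The sign of Oprm1, Oprl1, Dagla and Mgll changed in some. Of 406 refits of 24 pathway genes, 13 newly passed the test, in 11 genes. Depth limits Pdyn and the opioid receptors.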

Other observations

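Other lipid genes of the pathway lists also separated the libraries by astrocyte marker level. Fabp7, a fatty acid carrier of glial progenitors and astrocytes, had 7851 to 9818 normalised counts in the 3 libraries high in astrocyte markers and 2306 to 3129 in the other 4. Naaa, a lysosomal amidase, had 308 to 435 against 67.7 to 121. Vgf, a precursor of secreted peptides, went the other way, at 764, 200.3 and 831 in the 3 and 4868, 2862, 8694 and 8256 in the 4. These genes were named after their values were seen.

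RefSeq promoters (GRCr8, from 250 bases before to 50 after a start) were at hand for 5 members, Pdyn, Oprm1, Oprd1, Mgll and Faah. The letters TGACGTCA, TGCGTCA and TGANTCA were searched on both strands and occurred in none of their 6 promoters. Of 33469 promoters, 1.83%, 1.9% and 7.33% held them.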
